A study of Mus with 6 samples.

Results

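The clustered protocadherins were examined in ribosome-bound RNA from mouse brain. Members were chosen by symbol, as every gene of the deposited table whose name begins with Pcdha, Pcdhg, or Pcdhb followed by a digit. This gave 57 of 18887 genes, with 14 in the Pcdha cluster, 22 in the Pcdhb cluster and 21 in the Pcdhg cluster. The family itself was selected on results of the same comparison, in which some of its members stood among the largest differences. The members' values are therefore given as a description, and where a fit across all genes includes them, its output for them is described too and supports nothing.

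Clustered protocadherins are cell-surface adhesion proteins that bind copies of themselves on neighbouring cells, and are best known for letting a neuron tell its own branches from those of other neurons. Each Pcdha and Pcdhg transcript joins 1 variable exon, with its own promoter, to constant exons shared by the whole cluster, while each Pcdhb gene is a single exon. CTCF and cohesin loop a distant enhancer to a subset of the promoters, so that individual neurons are known to use different sets of isoforms. The C-type members (Pcdhac1, Pcdhac2, Pcdhgc3, Pcdhgc4 and Pcdhgc5) stand at the ends of their clusters and are used more uniformly than the alternate members. Gamma protocadherins are also known from astrocytes and from the choroid plexus.

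All samples were RiboTag immunoprecipitates, in which ribosomes carrying an epitope tag are pulled down together with the mRNA they hold. The labels give whole brain as the tissue and microglia, the resident macrophages of the brain, as the cell type of all 6 libraries. The 2 control libraries carry the genotype Ctr, and the 4 libraries named IRKO carry the genotype KO. The series concerns loss of insulin signaling in microglia, but the labels name neither the deleted gene nor the driver of the tag or of the deletion, nor strain, age or sex, nor whether replicates came from separate animals. No unprecipitated input library was analysed here. Values are read counts per gene divided by 1 size factor per library, called normalized counts below, and each is given for single libraries or as a mean ± SD.

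Summed over genes, 16883098 and 19010680 reads were recovered for the controls, against 13858978 to 14568773 for the IRKO libraries. Insr, which encodes the insulin receptor, stood at 565 and 532 normalized counts in the controls and at 357, 366, 290.5 and 340 in IRKO replicates 1 to 4, lower in every IRKO library but well above 0. Cell type markers, summed per library over the deposited table, differed between the groups. The 14 astrocyte markers summed to 467054 to 581282 in the controls, against 25259 to 33971 in the IRKO libraries, and all 14 were lower without overlap. The 18 microglia markers summed to 86525 to 108770 and 225544 to 318723, and all 18 were higher without overlap. The 16 neuron markers summed to 54876 to 68742 and 91445 to 120211, with 14 of the 16 higher without overlap and 2 overlapping. Every one of these astrocyte, microglia and neuron markers was above 0 in all libraries. The 9 choroid plexus markers summed to 4118 in control replicate 1, 68742 in control replicate 2 and 1078 to 12574 in the IRKO libraries. The oligodendrocyte sums (31739 to 40006 and 37471 to 68332), the vascular sums (3530 to 4219 and 3261 to 12754) and the sums of serotonergic neuron markers overlapped, and those of Purkinje cells did not (2447 to 2602 and 3277 to 3399). In such bulk precipitates, fewer cells of a type and less RNA per cell cannot be told apart. Neither can be told from a difference in what the precipitation brought down.

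The 3 clusters lie one after another on chromosome 18 of GRCm38.p6, and all 57 members were matched to RefSeq genes of that build. The Pcdha genes span chr18:36930285-37188897, the Pcdhb genes chr18:37264998-37521419 and the Pcdhg genes chr18:37661775-37841873. Each of the 14 Pcdha genes overlaps the other 13, and 43980 bases belong to all of them. Each of the 21 Pcdhg genes overlaps the other 20, with 22318 bases in common and ends that lie within 10 bases of each other. These are overlaps of gene spans, not of exons alone. A read in the constant exons can come from any isoform of its cluster. The rule by which the authors assigned such reads is not given in the sources used here. All 22 Pcdhb genes overlap no other member and span 2340 to 5271 bases each. If shared reads were only divided among a cluster's own members, its sum does not depend on how they were split. If such reads were dropped, counted for every gene they overlap or given to a gene outside the cluster, the sum depends on that rule. Which of these applied was not tested. The value of a single Pcdha or Pcdhg isoform depends on the rule in any case. The table also holds 3 read-through gene models, Gm37013, Gm38666 and Gm38667, which start near the variable exons of Pcdha4, Pcdha6 and Pcdha7 and run to chr18:37841873, the end of the Pcdhg cluster. Their RefSeq synonyms name them as fusions of those 3 alpha isoforms with the gamma cluster.

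The summed Pcdhg cluster was several times lower in the IRKO libraries. It stood at 21182 and 18366 normalized counts in control replicates 1 and 2 and at 4075, 4633, 4573 and 4616 in IRKO replicates 1 to 4. The IRKO mean of 4474 ± 267 (SD, n = 4) was 4.42-fold below the control mean of 19774 ± 1991 (SD, n = 2), and the lowest control lay far above the highest IRKO library. Without any size factor, as reads per 1000000 recovered reads, the cluster stood at 1115 and 998 in the controls, against 285 to 342 in the IRKO libraries. This direction was kept under each scaling tried. Scaling to the neuron or microglia markers used the mean of their log2 values. Both sets were higher in the IRKO libraries, so these scalings could only lower the ratio. No scaling to the astrocyte markers was run. The astrocyte markers moved the same way by a larger factor, 17.97-fold between the group means, and their part in the Pcdhg difference was not tested. Control replicate 2, in which the choroid plexus markers summed to 68742 against 4118 in control replicate 1, had the lower Pcdhg sum of the pair. Any part of choroid plexus RNA in the Pcdhg counts was not tested either.

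The summed Pcdha cluster was higher in the IRKO libraries, at 292 and 399 normalized counts in the controls and 672, 704, 633 and 558 in IRKO replicates 1 to 4, but the direction turned when libraries were scaled to the microglia markers. The group means were 346 ± 75.3 (SD, n = 2) and 642 ± 62.7 (SD, n = 4), a ratio of 1.86, and the groups did not overlap. Scaled to the neuron markers, the log2 ratio of the means went from 0.89 to 0.075. The neuron markers were 1.81-fold higher in the IRKO libraries by the same measure, and their part in the Pcdha difference was not tested.

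The summed Pcdhb cluster did not separate the groups. It stood at 555 and 806 normalized counts in the controls and at 605, 683, 593 and 556 in the IRKO libraries, so that all 4 IRKO values lay between the 2 controls. The means were 680 ± 178 (SD, n = 2) and 609 ± 53.4 (SD, n = 4). The sign of this small difference turned with the scaling, the IRKO mean lying above the control mean in reads per 1000000.

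**Figure D1:**
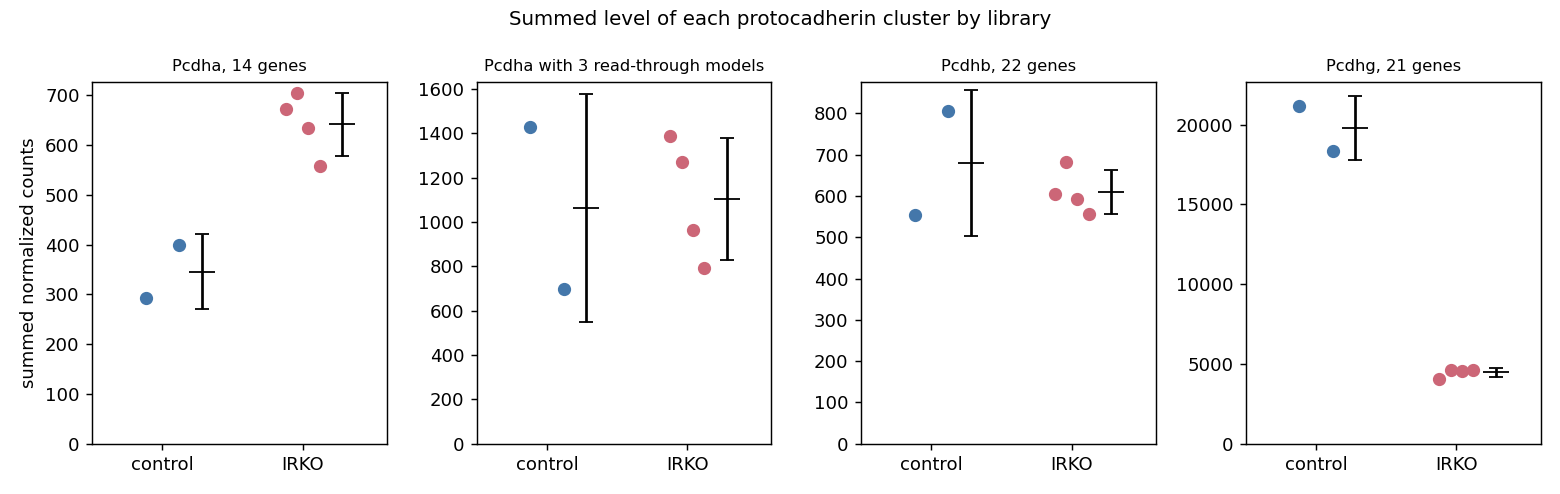
Summed normalized counts (vertical axes from 0, a separate scale in each panel) of the Pcdha, Pcdhb and Pcdhg genes, and of the Pcdha genes with the 3 read-through models, in 2 control libraries (blue) and 4 IRKO libraries (red). Horizontal bars are group means and whiskers are 1 SD. The Pcdhg sums of 4075 to 4633 in the IRKO libraries lie below both controls, the Pcdha sums lie above both controls under this normalization but not when scaled to microglia markers, and the other panels overlap.

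The balance among the clusters shifted with these sums. Pcdhg reads made up 96.2% and 93.9% of the normalized counts of all 57 members in the controls, against 76.1% to 80.6% in the IRKO libraries. Pcdha went from 1.33% and 2.04% to between 9.74% and 12.6%, and Pcdhb from 2.52% and 4.12% to between 9.71% and 11.4%. None of these 3 shares overlapped between the groups. The ratio of the Pcdhg sum to the Pcdha sum, which no scaling of a whole library can alter, was 72.4 and 46.0 in the controls and 6.07, 6.58, 7.22 and 8.27 in the IRKO libraries. These are shares of counts, not corrected for transcript length, so they compare libraries and not the abundance of the clusters.

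Within the Pcdhg cluster the C-type genes, when summed, were lower by the largest factor of the 3 types. Their sum was 9362 and 8202 normalized counts in the controls and 1302, 1227, 1792 and 1434 in the IRKO libraries, 6.11-fold lower by the means. The 12 A-type genes summed to 7606 and 6097 against 1692 to 2205, 3.54-fold lower. The 6 B-type genes summed to 4215 and 4067 against 840 to 1268, 3.77-fold lower. All 3 types separated the groups. The larger C-type factor rested on Pcdhgc3, which was 8.38-fold lower by the means. Pcdhgc5 was 3.6-fold and Pcdhgc4 3.16-fold lower, near the factors of the A-type and B-type sums.

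Pcdhgc3, a C-type isoform with a known role in dendrite branching through Axin1 and with reported use outside neurons, had the largest C-type difference. It stood at 6994 and 5755 normalized counts in the controls and at 775, 544, 1054 and 671 in IRKO replicates 1 to 4, an 8.38-fold difference of the means. Its share of the Pcdhg sum was 33.0% and 31.3% in the controls and 19.0%, 11.7%, 23.1% and 14.5% in the IRKO libraries. Both the levels and the shares separated the groups, the shares by a smaller factor of 1.88 between the means. Without Pcdhgc3 the sum over the other 20 genes was still 3.61-fold lower, at 14188 and 12611 in the controls, against 3301 to 4089 in the IRKO libraries.

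The other C-type gamma isoforms were also lower in each IRKO library. Pcdhgc5, an isoform that appears late in brain development, stood at 2125 and 2188 normalized counts in the controls and at 515, 599, 634 and 644 in the IRKO libraries. Its share of the Pcdhg sum was 10.03% and 11.9% in the controls, against 12.6% to 13.9% in the IRKO libraries, so its share was slightly higher where its level was lower. Pcdhgc4, the gamma isoform that developing interneurons need for survival, stood at 243 and 259 in the controls and at 11.9, 83.8, 103 and 119 in the IRKO libraries. IRKO replicate 1 lay well under the other 3 IRKO libraries for this gene.

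Of the alternate gamma isoforms, Pcdhgb2 took the largest mean share. It stood at 1123 and 795 normalized counts in the controls and at 360, 420, 372 and 433 in the IRKO libraries, and its share of the sum went from 5.30% and 4.33% to between 8.14% and 9.39%. Pcdhga6 and Pcdhgb7 were the gamma isoforms with an IRKO value of 0. Pcdhga6 stood at 1030 and 1020 in the controls and at 0, 129, 200.1 and 174 in IRKO replicates 1 to 4. Pcdhgb7 stood at 438 and 630 in the controls and at 36.7, 0, 95.2 and 81.8. Each was thus at 0 in 1 IRKO library while the others of that group held reads, and the library at 0 was not the same for both genes.

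Pcdhga9 was the member of this cluster with the least difference, at 200.2 and 134 normalized counts in the controls and 272, 218, 102 and 145 in the IRKO libraries. The groups overlapped and the means of 167 and 184 lay closer than the spread within either group. Because the rest of the cluster was lower, its share went from 0.945% and 0.728% to between 2.23% and 6.68%. The other 14 gamma genes had IRKO means 1.56-fold (Pcdhga1) to 6.67-fold (Pcdhga8) below the control means. In all, 19 of the 21 Pcdhg genes were lower in every IRKO library than in either control, the exceptions being Pcdhga9 and Pcdhga2. The same held for 28.6% of all genes in the table.

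**Figure D2:**
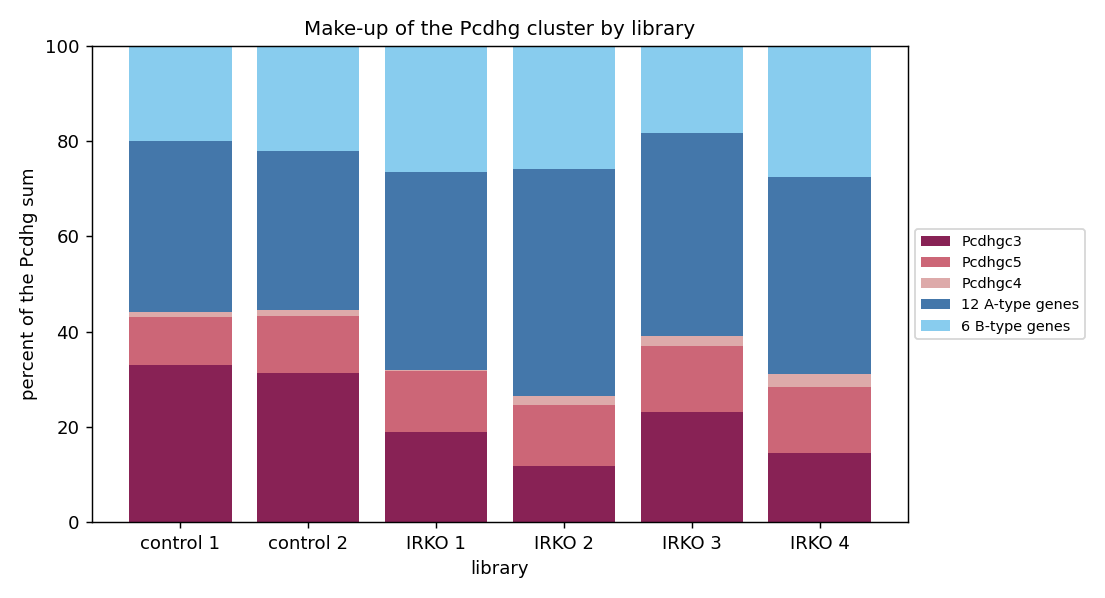
Percent of the Pcdhg sum (vertical axis) taken by Pcdhgc3, Pcdhgc5, Pcdhgc4, the 12 A-type genes and the 6 B-type genes in each library. The C-type genes together take 44.2% and 44.7% in the controls, against 26.5% to 39.2% in the IRKO libraries, and the A-type share is higher in each IRKO library than in either control.

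The counts were spread more evenly over the gamma isoforms in the IRKO libraries. The effective number of isoforms, the exponential of the Shannon entropy of the shares, was 12.6 and 12.4 in the controls and 14.7, 17.0, 14.7 and 16.7 in the IRKO libraries. The largest share of a single isoform was 33.0% and 31.3% in the controls, against 12.9% to 23.1% in the IRKO libraries. Since shared reads may have been divided among isoforms by the authors' counting, the number describes the table and not necessarily the transcripts.

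In the Pcdha cluster the largest differences came from a few alternate isoforms, and many values were 0. Pcdha10 was at 0 in both controls and at 175, 62.1, 39.8 and 28.3 normalized counts in IRKO replicates 1 to 4. With 3 reads in the control group taken as the floor, its IRKO mean was at least 48.7-fold higher. That bound was 26.3 without control replicate 1, 22.6 without control replicate 2 and 27.6 without IRKO replicate 1. Pcdha2 was at 0 in both controls and in IRKO replicate 1, and at 34.5, 30.1 and 57.5 in the other IRKO libraries. Pcdha3 stood at 0 and 13.6 in the controls and at 59.4, 73.9, 32.1 and 33.1 in the IRKO libraries, with no overlap.

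Pcdha12 and Pcdha5 took the largest mean shares of the cluster beside Pcdhac2 and were read in all 6 libraries. Pcdha12 stood at 60.7 and 71.7 normalized counts in the controls and at 257, 217, 110 and 91.6 in the IRKO libraries, a separation that turned in sign when the libraries were scaled to microglia markers. IRKO replicates 1 and 2 were well above replicates 3 and 4. Pcdha5 stood at 67.5 and 89.1 in the controls and at 26.8, 96.6, 56.4 and 73.1 in the IRKO libraries, which overlap. Its share of the Pcdha sum went from 23.1% and 22.3% to between 3.98% and 13.7%. Pcdha11 overlapped as well, at 60.7 and 35.8 against 51.5, 54.2, 36.9 and 18.5.

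The C-type alpha isoforms did not separate the groups one by one. Pcdhac2, known from serotonergic axons, stood at 51.7 and 79.4 normalized counts in the controls and at 102, 65.1, 144 and 111 in the IRKO libraries. Pcdhac1 stood at 24.8 and 0 in the controls and at 0, 37.5, 56.4 and 60.4. Together they took 26.1% and 19.9% of the Pcdha sum in the controls and 15.2%, 14.6%, 31.6% and 30.7% in the IRKO libraries, so the IRKO group itself fell into a lower and a higher pair. The same pairs appear in Pcdha12, whose share of the sum was 38.2% and 30.8% in IRKO replicates 1 and 2 and 17.3% and 16.4% in replicates 3 and 4.

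Serotonergic neuron genes were listed beside Pcdhac2 because of its known use there. Tph2, which encodes the enzyme of brain serotonin synthesis, stood at 65.2 and 112 normalized counts in the controls and at 21.8, 9.86, 47.6 and 6.82 in the IRKO libraries. Slc6a4, the serotonin transporter, was at 0 and 0.968 in the controls and at 1.98, 0, 20.4 and 0.974. Fev, a transcription factor of these neurons, was above 0 only in IRKO replicate 3, at 1.94. IRKO replicate 3 also held the most Slc18a2, the vesicular monoamine transporter, at 80.6 against 7.89 to 19.5 in the other IRKO libraries and 2.25 and 6.78 in the controls. Gata3 stood at 43.7 and 27.3 in IRKO replicates 3 and 4 and at 1.13 to 2.96 in the other 4 libraries. Slc22a3 stood at 5.62 and 13.6 in the controls, against 24.4 to 27.2 in the IRKO libraries. The library with the highest Pcdhac2 value was thus also the one with the most Slc6a4, Fev, Gata3 and Slc18a2, while the library with the most Tph2 was a control.

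The isoforms at which the read-through models start were at or near 0 in most libraries. Pcdha4 stood at 27.0 and 16.5 normalized counts in the controls and at 0 in all 4 IRKO libraries. With the same floor of 3 reads, which covers counting error only, it was at least 29.6-fold lower. That bound was 22.4 without control replicate 1. Pcdha7 was read only in control replicate 2, at 14.5, and Pcdha6 only in IRKO replicate 2, at 4.93. Outside this trio, Pcdha8 was read only in IRKO replicate 4, at 18.5. The read-through models themselves held more counts than these isoforms. Gm38667, the model that starts at Pcdha7, stood at 483 and 1.94 in the controls and at 299, 165, 68.0 and 82.8 in the IRKO libraries. Gm38666, which starts at Pcdha6, stood at 454 and 212 against 237, 354, 146 and 60.4. Gm37013, which starts at Pcdha4, stood at 199 and 85.2 against 180, 48.3, 117 and 91.6. It thus held reads in the IRKO libraries where Pcdha4 was at 0. How reads were divided between Pcdha4 and Gm37013 was not tested. Summed, the 3 models gave 1136 and 299 in the controls and 716, 567, 330 and 235 in the IRKO libraries, which overlap.

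Counting the read-through models with the alpha cluster removed its difference between the groups. The sum was then 1428 and 698 normalized counts in the controls and 1388, 1271, 964 and 793 in the IRKO libraries, with means of 1063 ± 517 (SD, n = 2) and 1104 ± 274 (SD, n = 4) and a ratio of 1.04. Both extremes of the IRKO group lay between the controls. Counting the models with the gamma cluster instead left it 4.15-fold lower, at 22318 and 18665 against 4791 to 5200. The Pcdha difference therefore depended on to which gene the reads of these overlapping models were assigned, and the Pcdhg difference did not. The share of the models' reads that belongs to either cluster cannot be read from gene totals.

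**Figure D3:**
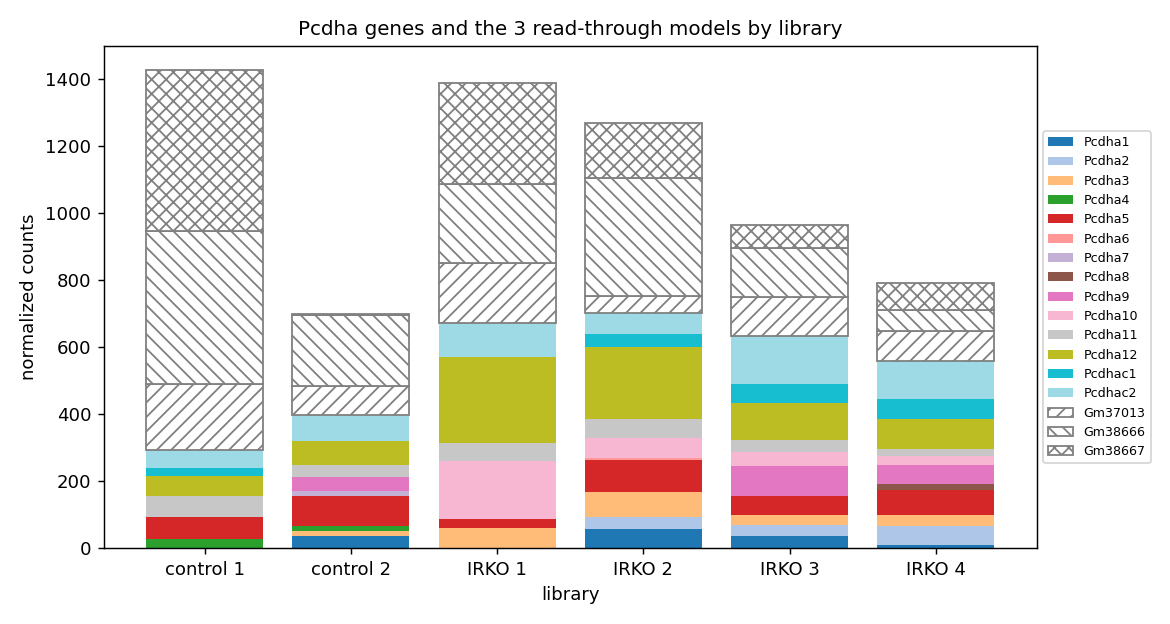
Normalized counts (vertical axis, from 0) of the 14 Pcdha genes (solid colours) and the 3 read-through models (hatched) stacked in each library. The solid parts reach 292 and 399 in the controls, against 558 to 704 in the IRKO libraries, while the whole bars, from 698 to 1428, overlap between the groups, and Pcdha10 is seen in the IRKO libraries alone.

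The Pcdhb genes, whose spans overlap no other member, showed smaller differences. The spans of the 3 read-through models run across them. Pcdhb17 took the largest share of this cluster, with 74.2 and 156 normalized counts in the controls and 142, 155, 117 and 109 in the IRKO libraries. Pcdhb20 stood at 66.4 and 55.2 against 72.3, 87.7, 67.0 and 62.3. Pcdhb7 stood at 52.9 and 103 against 54.5, 59.1, 36.9 and 42.9. All 3 overlapped between the groups. Per kilobase of gene span, the only length given by the annotation used here, Pcdhb17 stood at 35.2 ± 17.7 in the controls (SD, n = 2) and 39.9 ± 6.52 in the IRKO libraries (SD, n = 4). Pcdhb7, at 22.2 ± 10.04 and 13.8 ± 2.92, and Pcdhb20, at 17.9 ± 2.33 and 21.3 ± 3.25 on this scale, came below Pcdhb17 in the IRKO libraries by more than their SDs, but not in the controls, where the SDs overlap.

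In the Pcdhb cluster 5 of 22 genes separated the groups, 1 above and 4 below, where 27.1% of all genes lay above and 28.6% below. The cluster's share is thus under that of the whole table. Pcdhb19 was higher in the IRKO libraries, at 18 and 13.6 normalized counts in the controls and 24.8, 26.6, 36.0 and 30.2, a direction that turned when scaled to microglia markers. Pcdhb4 was 3.08-fold lower, at 24.8 and 31.0 against 4.95, 4.93, 14.6 and 11.7. Pcdhb10 was 2.49-fold lower, at 45.0 and 61.0 against 12.9, 32.5, 20.4 and 19.5. Pcdhb14 was 2.18-fold lower, at 30.4 and 55.2 against 22.8, 23.7, 15.5 and 16.6. Pcdhb5, at 47.2 and 41.6 against 20.7 to 29.7, was the fifth. Pcdhb3 and Pcdhb15, next to Pcdhb19 among the higher genes, overlapped between the groups, at 14.6 and 26.1 against 33.7, 38.4, 30.1 and 20.5 for Pcdhb3, and at 7.87 and 19.4 against 15.9, 16.8, 14.6 and 19.5 for Pcdhb15. Pcdhb1 was at 0 in all 6 libraries. The effective number of Pcdhb isoforms was 15.8 and 14.8 in the controls, against 13.2 to 15.1 in the IRKO libraries.

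**Figure D4:**
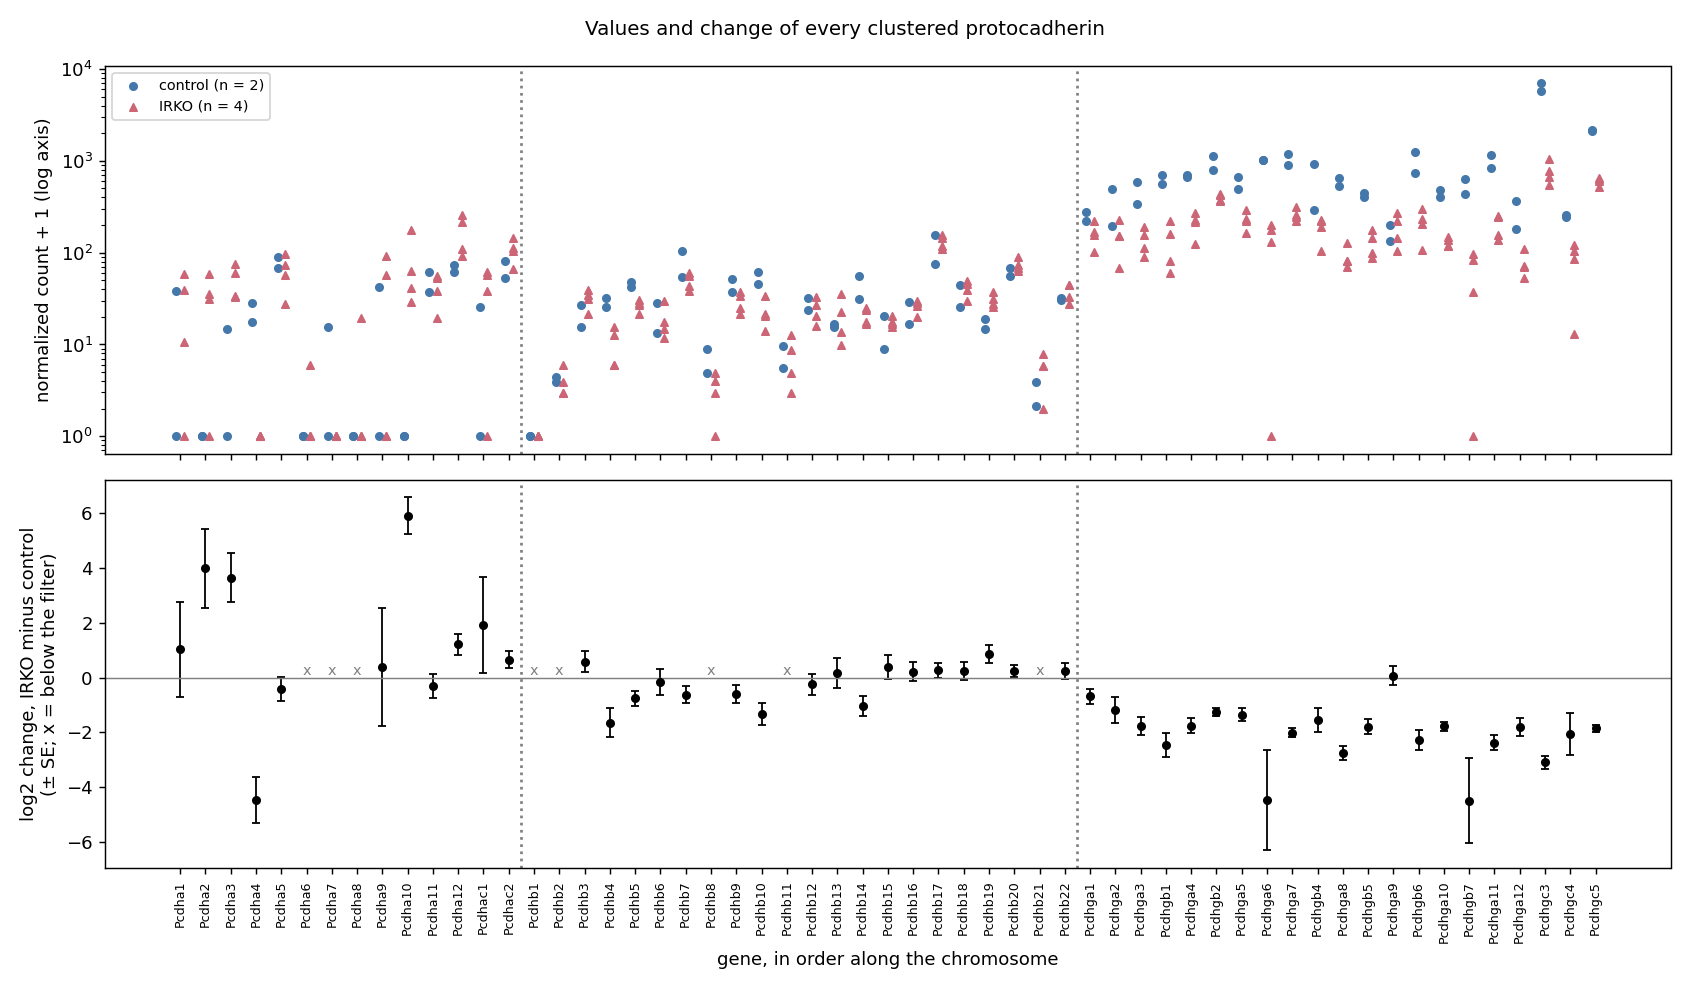
Every clustered protocadherin in order along the chromosome, with dotted lines between the Pcdha, Pcdhb and Pcdhg clusters. The upper panel gives the normalized count + 1 (log axis) in each control (blue circles) and IRKO library (red triangles), and the lower panel the log2 change, IRKO minus control, of log2(value + 1) with its SE from limma, with a cross for genes below the filter. Of the 21 Pcdhg genes 19 have every IRKO value below both controls under the deposited normalization, as do 28.6% of all genes, and most of the points at 0 belong to Pcdha.

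The spread of single isoforms among the IRKO libraries was set beside that of other genes within the same range of IRKO means. Among members above 0 in all 4 IRKO libraries, the median ratio of the highest to the lowest value was 2.87 for 6 Pcdha genes, 1.72 for 20 Pcdhb genes and 2.12 for 19 Pcdhg genes. Other genes of the table with IRKO means in the same range had median ratios of 1.48 (2885 genes), 1.84 (4880 genes) and 1.31 (7543 genes) in that order. The Pcdhb genes thus varied about as other genes in their range did, and the Pcdha and Pcdhg genes varied more. The ranges were wide, from 75.25 to 761 for Pcdhg, and genes were not matched in level within them. A part of level in these differences was not tested.

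Zeros beside clear values were found in the overlapping clusters. A gene at 0 in 1 library and at 20 normalized counts or more in another of the same group was seen for Pcdha1, Pcdha2, Pcdha9, Pcdhac1, Pcdhga6 and Pcdhgb7. These are 6 of the 48 members that reached 20 anywhere, or 12.5%, beside 71 of 14429 genes, or 0.492%, in the whole table. No Pcdhb gene was among them. Pcdha9, for example, stood at 0 and 41.6 in the controls and at 0, 0, 90.4 and 56.5 in the IRKO libraries, so neither group had a common level.

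In a limma fit across all genes, 49 members passed the filter on low values, which asked for 10 normalized counts in at least 2 libraries. They were 11 Pcdha, 17 Pcdhb and 21 Pcdhg genes. Of these 49, 5 were called higher and 22 lower at an adjusted p under 0.05, where the fit called 55.6% of the 14698 genes tested, 26.6% higher and 29.0% lower. Without control replicate 1, 2 members were called higher, and 3 were without control replicate 2 or without IRKO replicate 2, 3 or 4. Nothing is read from these counts, since the family was chosen with this comparison in view.

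Genes related to the clusters by family, regulation or position were taken from lists and tested in the same limma fit, with Benjamini-Hochberg adjustment over all genes. Their calls are to be read beside the 26.6% of all genes that were higher and the 29.0% that were lower. Of 12 non-clustered protocadherins, single genes outside the clusters, 11 were tested, of which 6 rose and 2 fell. Their median log2 change was 0.41, beside 0.02 over all genes tested. Pcdh10, which acts in axon growth and synapse elimination, had 2072 and 1962 normalized counts in the controls, against 669 to 721 in the IRKO libraries, a log2 change of -1.53 ± 0.10 (SE; limma adjusted p = 3.59e-06). Pcdh1, also counted among the neighbours of the clusters below, fell as well, by 0.71 on the log2 scale (limma adjusted p = 0.000661). Pcdh15, a component of the tip links of hair cells, rose by 1.18 ± 0.22 (SE; limma adjusted p = 0.00152). Pcdh8 rose by 0.88 and Pcdh11x by 0.89 on that scale, but these 3 rises turned to falls under scaling to microglia markers. Without control replicate 1, 3 genes of the list rose.

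Regulators of promoter choice in the clusters mostly did not pass the test, with 6 of 28 higher and 2 lower and a median log2 change of 0.11. Pds5b, a cohesin cofactor, stood at 267 and 281 normalized counts in the controls, against 520.1 to 599 in the IRKO libraries, a log2 change of 1.00 ± 0.12 (SE; limma adjusted p = 0.000146). Smchd1, a chromatin protein that silences clustered protocadherins, rose by 0.58 (limma adjusted p = 0.00485), and Tet2, a methylcytosine oxidase, by 0.85. All 3 turned to falls under scaling to microglia markers, and Smchd1 also under scaling to neuron markers. Smc3, a cohesin subunit, fell by 0.80 on the log2 scale (limma adjusted p = 0.000713). Uhrf1, which recruits the maintenance DNA methyltransferase, fell by 2.17 ± 0.49 (SE; limma adjusted p = 0.00499), from 164 and 110 to between 16.8 and 68.0. Ctcf, whose product anchors the loops, had a log2 change of 0.23 ± 0.13 and did not pass (limma adjusted p = 0.145). Without control replicate 1, 3 regulators rose.

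Proteases and partners of the protocadherins were called in both directions, 7 of 22 higher and 7 lower, with a median log2 change of -0.01. Adam10, the sheddase that cuts gamma protocadherins, rose from 669 and 683 normalized counts to between 1164 and 1384, a log2 change of 0.95 ± 0.11 (SE; limma adjusted p = 0.000136). Cyfip2 and Abi2, members of the WAVE actin-regulating complex that binds the tails of some protocadherins, rose by 0.82 and 0.49. These 3 rises turned to falls under scaling to microglia markers, and those of Cyfip2 and Abi2 also under scaling to neuron markers. Fyn, a kinase, fell by 0.93 on the log2 scale (limma adjusted p = 0.000186), Rhoa, a small GTPase, by 0.61, and Aph1a, a subunit of gamma-secretase, by 0.56. Without control replicate 1, 4 were higher and 4 lower, and without control replicate 2, 4 were lower.

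The neighbourhood of the clusters was taken as every other gene within 500 kb of them or between them. This took in the read-through models, which overlap the clusters themselves. Of 33 such genes 29 were tested, with 5 higher and 9 lower and a median log2 change of -0.14. Hbegf, a growth factor gene, fell from 1351 and 1002 normalized counts to between 215 and 292, a log2 change of -2.20 ± 0.18 (SE; limma adjusted p = 1.16e-05). Dele1, of the mitochondrial stress response, fell by 1.64 on the log2 scale (limma adjusted p = 4.53e-05), and Pcdh1, which lies in this stretch too, by 0.71. Cd14, a lipopolysaccharide co-receptor of macrophages, rose by 2.03 ± 0.18 (SE; limma adjusted p = 1.97e-05). Arap3 rose by 1.6 and Rell2 by 1.07. Under scaling to microglia markers Rell2 turned to a fall. The calls of Cd14 (log2 change 0.44) and Arap3 (0.0076) were lost under that scaling. Without IRKO replicate 1 or 2, 3 neighbours were higher. Genes called higher and genes called lower thus both lay around the clusters.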

How the data were processed

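The 6 RiboTag libraries, 2 control and 4 IRKO, were grouped by the labels. The submitters' processing notes name Bowtie2 and GRCm38.p6. How reads were counted and normalized, on which annotation and whether by strand, is not given in the sources used here. Per the values themselves, the authors deposited a signal per gene, reads divided by 1 size factor per library. In each library 100% of them were whole multiples of the value of a single read within 0.05 reads, and reads recovered this way were used for counts, for edgeR 4.0.16 and for DESeq2 1.42.0 as alternatives.

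The main fit took log2(value + 1) of genes with at least 10 in at least 2 libraries (14698 of 18887), with limma 3.58.1 in R 4.3.3, moderated variances with a mean-variance trend and two-sided Benjamini-Hochberg adjusted p-values at 0.05. A pseudocount of 1 understates the change of low genes. Replicates are not stated to be separate animals, so the p-values reflect no more than the scatter of these libraries, which may be technical. Chi-square per degree of freedom within groups was 16.8 to 36.9, so all libraries were kept as separate samples. Floors cover counting error only.

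Members and gene lists were chosen with earlier results of these data known. Cluster sums add the values of all members, those below the filter included, and a share is a member's percent of that sum. Values in each library are given for C-type members, for the 3 largest mean shares, rises and falls of each cluster, and for members at 0 throughout a group. Other members named, such as Pcdha1, Pcdha9, Pcdhb5, Pcdhga1, Pcdhga2, Pcdhga8 and the read-through models, and also Insr and Ctcf, were named after their values were seen. From each gene list up to 3 genes with the smallest p were named in each direction. Coordinates are RefSeq's for GRCm38.p6. No sequence is printed.

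The alternatives were other pseudocounts, filters, scalings and count tools, a replicate block and each library left out. Sums with the read-through models, the Pcdhg sum without Pcdhgc3, reads per 1000000 and edgeR without IRKO replicate 1, whose value per read of 0.991 is too near 1 to tell from rounding, were added after the data were seen.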

Additional observations from a re-analysis of the deposited data

Results flagged for a closer look

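Of 87 values checked for a library standing apart from the other 3 of the IRKO group, 3 stood out by Dixon's criterion. Chance alone gives such a library in about 1 of 20 groups, and 3 of 87 is not above that rate. Pcdha8 stood at 18.5 normalized counts in IRKO replicate 4 and at 0 in the other 3. Pcdha6 stood at 4.93 in IRKO replicate 2 and at 0 in the others. A gene read in only 1 IRKO library is always flagged by this criterion, so these flags carry no further information. The Pcdhg sum stood at 4075 in IRKO replicate 1, below the 4573 to 4633 of the others, and the gap made up 0.893 of the group's range. Without IRKO replicate 1 the Pcdhg sum kept its direction.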

How the results depend on the processing

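The Pcdhg sum had a log2 ratio of group means of -2.14 and stayed negative under every alternative run: -1.96 with quantile normalization, -3.72 scaled to microglia markers, -2.98 scaled to neuron markers, -1.72 in reads per 1000000, -1.85 without Pcdhgc3, and -2.24 to -2.04 with each library left out. The Pcdha sum, at 0.89, went to -0.71 scaled to microglia markers, 0.075 scaled to neuron markers, 1.30 in reads per 1000000 and 0.054 with the read-through models, and to between 0.69 and 1.13 with a library left out. The Pcdhb sum, at -0.16, went to -1.77 scaled to microglia markers, -0.97 scaled to neuron markers and 0.25 in reads per 1000000, and to between -0.40 and 0.14 with a library left out. These ratios are to be read against the median log2 change of all genes, which was 0.02 in the main setting, 0.13 with quantile normalization, -1.56 scaled to microglia markers and -0.80 scaled to neuron markers.

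The microglia and neuron markers were higher in the IRKO libraries, so scaling to either moves log2 changes downward. Scaled to microglia markers, 42 genes of all were higher and 12272 lower, and scaled to neuron markers 485 and 8723. In that order, 3 and 3 members were higher, with 39 members lower under the first. Of the non-clustered protocadherins 0 and 0 were higher and 9 and 4 lower, of the regulators 0 and 0 higher and 28 and 19 lower, of the partners 0 and 0 higher and 21 and 15 lower, and of the neighbours 0 and 2 higher and 25 and 21 lower. Scaled to microglia markers the log2 change turned to -0.37 for Pcdha12, -0.67 for Pcdhb19, -0.39 for Pcdh15, -0.70 for Pcdh8, -0.68 for Pcdh11x, -0.59 for Pds5b, -1.0 for Smchd1, -0.73 for Tet2, -0.64 for Adam10, -0.78 for Cyfip2, -1.11 for Abi2 and -0.52 for Rell2. Scaled to neuron markers it turned to -0.24 for Smchd1, -0.01 for Cyfip2 and -0.34 for Abi2. Another 10 calls of named genes were lost with no change of sign, 9 of them under these scalings and that of Aph1a with quantile normalization.

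Members called higher were 3 with a filter at 50, and 2 to 5 with a library left out. Higher calls ranged from 3 to 7 for non-clustered protocadherins, 3 to 6 for regulators, 4 to 8 for partners and 3 to 6 for neighbours, and lower calls of partners from 4 to 8. Partners lower were 4 with quantile normalization, and neighbours higher were 3 with edgeR on the 5 libraries other than IRKO replicate 1. With the replicate block 3 members were higher and 21 lower, and 3244 and 3691 of all genes. Deviations of same-numbered samples correlated at -0.08 for replicates 1 and 0.08 for replicates 2. The deviations of 2 controls mirror each other, so these values cannot show whether the numbers pair the samples. The cause of these changes was not tested. Shares per coding length could not be run, and leaving out overlapping members would leave no Pcdha or Pcdhg gene. With 2 controls, a low-count isoform such as those of Pcdha rests on few reads.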
